A study of Mus musculus with 6 samples.

Results

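Retinoid and alcohol dehydrogenase genes were followed on 6 Illumina bead arrays of mouse skin wounds. The wounds passed through the full thickness of the back skin and were taken 8 days after injury. The set holds 9 of the 19057 named genes of the array, read by 17 of its 45281 probes: Stra6, Adh1, Adh7, Aldh1a1, Aldh1a2, Aldh1a3, Crabp2, Rarg and Cyp26b1. The genes were chosen by their roles and by their measured changes in both experiments of the study, which were compared for changes in opposite directions, so these differences are given as a description, with no test. Probes were found by the platform's gene symbol.

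Beta-catenin, the Wnt signal carrier encoded by Ctnnb1, was altered in mice of C57/BL6 background. The array labelled stabilised came from a mouse with floxed exon 3 of Ctnnb1 given adenovirus with Cre, and its GFP control array from a mouse of the same genotype given adenovirus with GFP, both aged 2 months, with 1 array each. The 2 knockdown arrays came from mice with floxed exons 2 to 6 and a Cre-Esr1 transgene, and the 2 tamoxifen control arrays from mice with the same floxed exons and no Cre-Esr1. All 4 of these mice received tamoxifen. Replicate 1 of each tamoxifen group was aged 5 months and replicate 2 was aged 2 months, so age and replicate number cannot be told apart. The labels call the arrays biological replicates. The sources used here name neither the promoter that drives Cre-Esr1 nor the cells that took up the adenovirus, and each RNA came from a whole wound with all its cell types. Lower RNA in a wound can come from fewer cells of a type or from less RNA per cell, and these arrays cannot tell them apart.

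Between 15217 and 16656 probes per array had a detection p under 0.01, the limit used here for calling a probe detected. Ctnnb1, on the brightest of its 4 probes, read 11.40 on the stabilised array and 11.49 on the GFP control array. It read 11.93 and 11.86 on the knockdown arrays, against 12.04 and 11.48 on the tamoxifen control arrays. The arrays of both groups overlapped, and where these probes lie relative to the floxed exons is not given, so the labels are not checked by them. Xist, which coats the silent X chromosome of females, read 10.12 and 10.42 on the adenovirus arrays and 4.60 to 4.67 on the tamoxifen arrays. Eif2s3y, a gene of the Y chromosome, read 4.60 on both adenovirus arrays and 8.81 to 9.09 on the tamoxifen arrays. The adenovirus mice thus had the pattern of females and the tamoxifen mice that of males.

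Retinol from the blood enters cells with the help of the membrane receptor Stra6. Alcohol dehydrogenases such as Adh1 and Adh7, besides short-chain dehydrogenases, oxidise retinol to retinal, and the retinaldehyde dehydrogenases Aldh1a1, Aldh1a2 and Aldh1a3 oxidise retinal to retinoic acid. Crabp2 carries retinoic acid to the nucleus, Rarg encodes a nuclear receptor that binds it and is the main retinoic acid receptor of epidermis, and Cyp26b1 clears it by oxidation. Retinoic acid is known as a regulator of keratinocyte differentiation, sebaceous glands and the hair cycle. Adh1 and Adh7 also oxidise other alcohols.

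Promoter windows, from 250 bases before to 50 bases after an annotated start, were taken from RefSeq (assembly GRCm38.p6). They were found for 7 of the 9 genes, in 12 windows. The 3 shown belong to Adh1 and Aldh1a1, whose knockdown and control arrays did not overlap and whose adenovirus difference had the opposite sign. Capitals would mark the Tcf/Lef core CTTTGA, the motif of the factors that beta-catenin binds, or the retinoic acid receptor half-sites AGGTCA and AGTTCA, on either strand, and lower case marks all other bases. The reverse strand matches of CTTTGA read TCAAAG.
Adh1, chr3:138277335-138277634, plus strand: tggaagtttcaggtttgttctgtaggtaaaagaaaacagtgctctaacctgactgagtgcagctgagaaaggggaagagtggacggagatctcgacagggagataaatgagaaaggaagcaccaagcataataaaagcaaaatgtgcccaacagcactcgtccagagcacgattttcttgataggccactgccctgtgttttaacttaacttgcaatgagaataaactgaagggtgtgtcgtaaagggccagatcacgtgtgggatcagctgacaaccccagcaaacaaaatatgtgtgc
Aldh1a1, upstream start, chr19:20492333-20492632, plus strand: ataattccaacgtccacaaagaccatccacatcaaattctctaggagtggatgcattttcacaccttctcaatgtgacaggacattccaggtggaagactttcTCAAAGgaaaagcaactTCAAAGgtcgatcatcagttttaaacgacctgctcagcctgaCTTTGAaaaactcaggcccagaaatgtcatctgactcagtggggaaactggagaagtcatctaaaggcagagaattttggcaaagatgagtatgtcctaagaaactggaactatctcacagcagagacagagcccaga
Aldh1a1, downstream start, chr19:20601718-20602017, plus strand: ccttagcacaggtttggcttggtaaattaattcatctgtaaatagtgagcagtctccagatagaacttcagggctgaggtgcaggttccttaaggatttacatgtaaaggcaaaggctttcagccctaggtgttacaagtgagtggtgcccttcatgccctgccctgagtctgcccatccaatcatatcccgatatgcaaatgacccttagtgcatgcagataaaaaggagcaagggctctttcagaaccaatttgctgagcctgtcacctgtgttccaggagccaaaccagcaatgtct

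The upstream window of Aldh1a1 held CTTTGA 3 times, with first bases 147, 130 and 88 bases before the start. Of all 32851 windows of this length, 16.0% held the core at least once and 0.164% held it at least 3 times. The cutoff of 3 equals the count in the window with the most matches of the 12. The share therefore does not measure how unusual that window is. The downstream Aldh1a1 window and the Adh1 window held 0 matches of the 3 motifs, which says only that these letters are not in these 300 bases. The table does not say which Aldh1a1 start serves the transcript that the probe reads. Among the other members, 1 Stra6 window held CTTTGA, and 1 Rarg window held AGGTCA, which 16.3% of all windows held. AGTTCA, found in 14.0% of all windows, occurred once in the Adh7 window and once in another Stra6 window.

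All values below are log2 intensities of the deposited value table, and where a gene has several probes the brightest is given first. On the tamoxifen arrays 7 members were detected on at least 2 arrays and entered the comparisons, and on the adenovirus pair 8 members were detected on at least 1 array. Of the 17 probes, 6 were detected on no array.

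**Figure D1:**
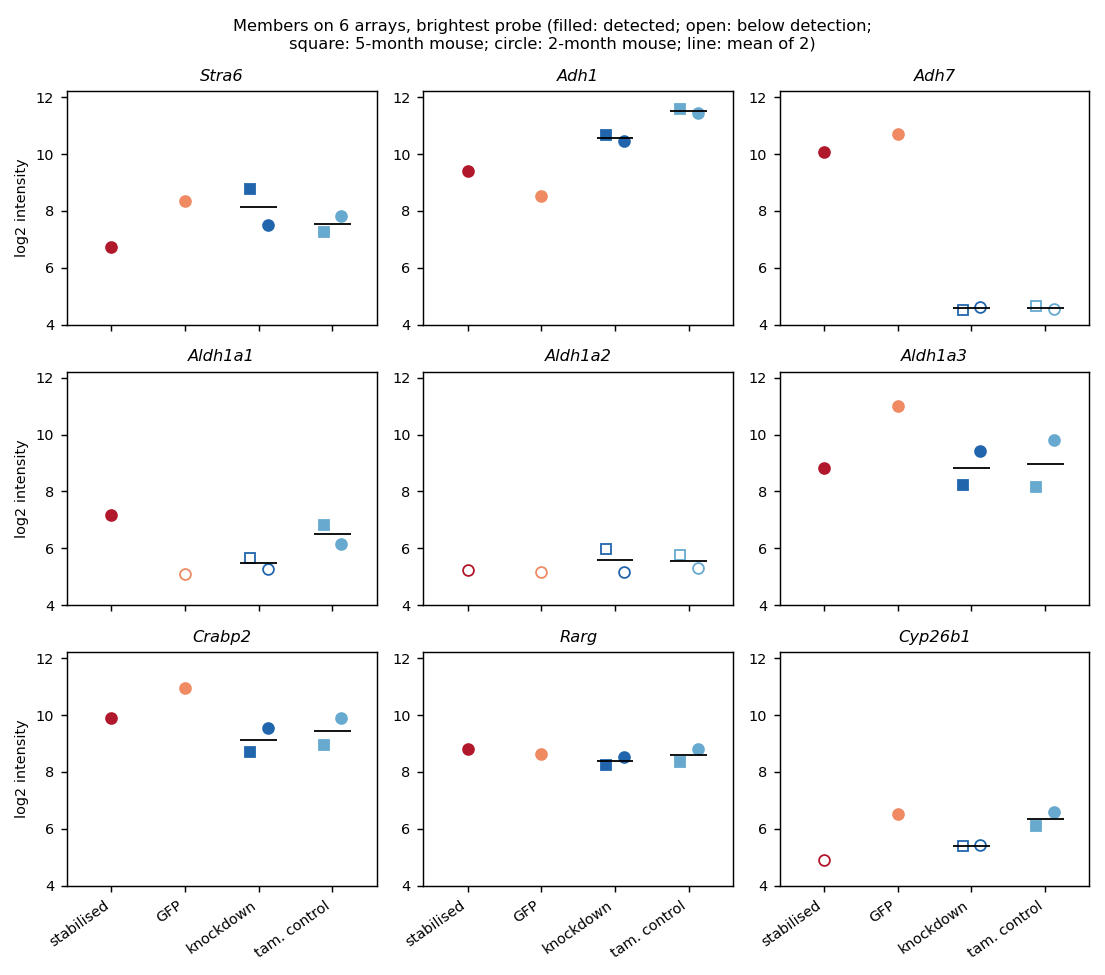
Log2 intensity (vertical axis) of the brightest probe of each member on the 6 arrays, by group. Filled symbols are detected arrays, open symbols arrays below detection, squares 5-month mice, circles 2-month mice, and lines the mean of 2 arrays. Adh7 is detected on the 2 adenovirus arrays and on no tamoxifen array, and Adh1 is lower on both knockdown arrays than on both tamoxifen controls.

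Uptake was represented by Stra6. Its detected probe (ILMN_2753792) read 6.74 on the stabilised array and 8.34 on the GFP control array, a log2 difference of -1.60. The knockdown arrays read 8.76 at 5 months and 7.49 at 2 months, against 7.24 and 7.82 on the tamoxifen controls of those ages. The stabilised array was the lowest of the 6, and knockdown replicate 1 the highest. The knockdown difference was 1.52 at 5 months and -0.33 at 2 months. The mean difference of 0.59 became -0.04 without knockdown replicate 1 and 1.23 without knockdown replicate 2, so its sign rested on replicate 1. Leaving an array out also unbalances the ages. The second Stra6 probe was detected on no array.

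Adh1, a class I alcohol dehydrogenase, was lower in knockdown wounds on both of its probes. The brightest (ILMN_2850077) read 10.66 and 10.47 on the knockdown arrays and 11.60 and 11.45 on the tamoxifen control arrays. The 2 groups did not overlap. Knockdown wounds averaged 10.56 ± 0.13 and control wounds 11.52 ± 0.11 (mean and SD of 2 arrays), a log2 difference of -0.96, or 1.94-fold lower. The difference was almost the same at both ages, -0.94 at 5 months and -0.98 at 2 months, and lay between -0.86 and -1.05 without each tamoxifen array in turn. The second probe of Adh1 (ILMN_1258501) read 9.60 and 9.81 in knockdown and 10.77 and 10.76 in control wounds, a difference of -1.06.

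In the adenovirus pair Adh1 ran the other way. It read 9.42 on the stabilised array and 8.53 on the GFP control array, a difference of 0.88 on the brightest probe and of 0.49 on the second, with 1 array each and no replicate check. All 4 tamoxifen arrays read higher than both adenovirus arrays on both probes, so the lowest Adh1 level was on the GFP control array.

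Adh7, the class IV enzyme that is known for a high activity with retinol and for expression in stratified epithelia, separated the experiments instead of the groups. Its brightest probe (ILMN_2621448) read 10.06 on the stabilised and 10.70 on the GFP control array, with deposited intensities of 1100 and 1913. On the knockdown arrays it read 4.51 and 4.64 and on the tamoxifen controls 4.65 and 4.55, with intensities of 109 to 127, below the array medians of 136 to 152. It was therefore at least 20.1-fold higher on the adenovirus arrays. The second probe of Adh7 was below detection on all 6 arrays, 5.34 being its highest value, so the difference rests on 1 probe. Of 10600 genes detected on any array, 49 (0.462%) had both adenovirus arrays at least 2-fold above every tamoxifen array. Of them 1, the female marker Xist, had a larger gap than Adh7. The experiments differ in virus, tamoxifen, floxed exons and sex, which cannot be told apart, and for 2 of the arrays in age. The 2-month tamoxifen arrays, of the age of the adenovirus mice, were below detection too. Within the adenovirus pair the stabilised array was lower by 0.64.

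Of the 3 retinaldehyde dehydrogenases, Aldh1a1 was higher on the stabilised array and lower in knockdown wounds, at signals near the detection limit. Its single probe (ILMN_1222734) read 7.16 on the stabilised array and 5.10, below detection, on the GFP control array. The log2 difference was 2.06, and counted against the detection floor the stabilised array was at least 2.21-fold higher. On the knockdown arrays it read 5.66 and 5.29, both below detection, against 6.84 and 6.15 on the tamoxifen controls, both detected. These groups did not overlap, the difference of the measured means was -1.02, and knockdown was at least 1.32-fold lower. Aldh1a1 entered the tamoxifen comparison only through its controls. Without background correction before quantile normalization the 2 differences shrank to 0.82 and -0.38, and both kept their sign.

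Aldh1a2 was below detection on every array with both of its probes, which read 4.76 to 5.98. Aldh1a3 was detected on all arrays with its brightest probe (ILMN_1237578), which read 8.82 on the stabilised and 11.00 on the GFP control array, a difference of -2.19. On the knockdown arrays it read 8.23 at 5 months and 9.42 at 2 months, against 8.15 and 9.80 on the tamoxifen controls of those ages. The groups overlapped. The mean difference of -0.15 ranged from -0.97 to 0.68 when single tamoxifen arrays were left out, which leaves the ages unbalanced. Within an age it was 0.08 at 5 months and -0.38 at 2 months. A second detected probe of Aldh1a3 (ILMN_2761436) went against the first in the adenovirus pair, with 8.40 on the stabilised and 8.38 on the GFP control array. The platform annotation ties the first probe to a cDNA clone and the second to the RefSeq transcript. The stabilised difference of Aldh1a3 therefore holds for 1 of its 2 detected probes.

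Crabp2, the carrier protein, has 1 probe (ILMN_1214483). It read 9.90 on the stabilised and 10.94 on the GFP control array, a difference of -1.04. The knockdown arrays read 8.70 and 9.56 and the tamoxifen controls 8.97 and 9.89, so the groups overlapped. At each age the knockdown array was the lower, by 0.26 at 5 months and 0.33 at 2 months, with 1 array per group and age and so no replicate within an age. The mean difference of -0.30 changed sign without knockdown replicate 1 (0.13) or tamoxifen control replicate 2 (0.17), where the ages are no longer balanced.

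Rarg varied least among the detected members, over a range of 0.59 on the 6 arrays. Its brightest probe (ILMN_2618068) read 8.81 on the stabilised and 8.62 on the GFP control array. It read 8.23 and 8.53 on the knockdown arrays and 8.37 and 8.82 on the tamoxifen controls, a mean difference of -0.21, with groups that overlapped. The second detected probe gave differences of 0.16 for the stabilised array and -0.28 for knockdown.

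Cyp26b1, at the end of the pathway, was close to the detection limit. Its probe (ILMN_2905120) read 4.91, below detection, on the stabilised array and 6.51 on the GFP control array. It read 5.39 and 5.44 on the knockdown arrays, both below detection, and 6.12 and 6.58 on the tamoxifen controls, both detected. The groups did not overlap. The measured values differed by -1.60 in the adenovirus pair and by -0.93 in the tamoxifen groups, and as bounds Cyp26b1 was at least 1.16-fold lower on the stabilised array and at least 1.19-fold lower in knockdown. Cyp26b1 also entered the tamoxifen comparison only through its controls, and without background correction its differences were -0.58 and -0.33.

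**Figure D2:**
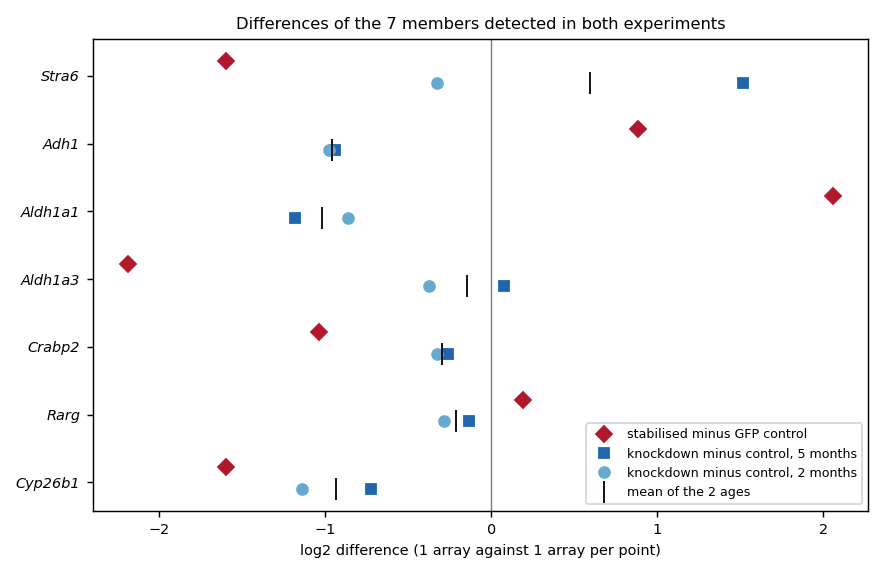
Log2 difference (horizontal axis) of 7 members, with diamonds for stabilised minus GFP control, squares and circles for knockdown minus tamoxifen control within 5 and within 2 months, and ticks for the mean of both ages. Adh1 and Aldh1a1 lie on opposite sides of 0 in the 2 experiments, and Cyp26b1 and Crabp2 lie below 0 in both.

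Set side by side, 4 of the 7 members measured in both experiments had differences of opposite sign: Stra6, Adh1, Aldh1a1 and Rarg. Over all 9561 genes measured by the same probe in both, 41.7% had opposite signs. Both knockdown arrays lay below both controls for 3 members, Adh1, Aldh1a1 and Cyp26b1, where 16.0% of 9855 genes did, and above both for 0 members, where 17.1% did. By measured values, which count an array below detection at its own value, 1 of 8 members, Aldh1a1, differed by 2-fold or more upward on the stabilised array, as did 2.76% of 10002 genes. By the same count 4 members, Stra6, Aldh1a3, Crabp2 and Cyp26b1, differed by 2-fold or more downward, as did 4.91% of genes. Cyp26b1 was below detection on the stabilised array, and its bound of 1.16-fold falls short of 2-fold. Without background correction Stra6 (-0.98), Crabp2 (-0.93), Cyp26b1 (-0.58) and Aldh1a1 (0.82) missed 2-fold, and Aldh1a3 (-1.92) kept it. The members were chosen on these contrasts, and nothing follows from these shares.

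All 9 basal keratinocyte and all 9 fibroblast markers were detected on every array, and several marker lists moved beside these differences. All 9 basal keratinocyte markers were lower on both knockdown arrays than on both controls, as were 16.0% of 9855 genes. The median log2 difference of the 9 markers was -1.01. The log2 of their summed level was 16.28 and 16.61 in knockdown, against 16.90 and 17.17 in control wounds. On the stabilised array 6 of these 9 had negative differences, with a median of -0.38. Suprabasal markers had medians of -0.03 in knockdown and -0.32 on the stabilised array over 7 genes. Among them Krt2 differed by -4.48 in knockdown, a value that uses knockdown replicate 1 below detection at 5.89. Krt77 was at least 31.8-fold lower on the stabilised array. All 6 measured sebaceous gland markers had negative knockdown differences with a median of -1.10, which was -1.51 at 5 months and -0.55 at 2 months. For 3 of the 6 both knockdown arrays lay below both controls, as for 16.0% of all genes. On the stabilised array the log2 summed level of 7 sebaceous markers was 9.81, against 14.45 on the GFP control array, and 5 of the 7 were below detection there. Counted against the detection floor, 5 of the 7 were lower by 2-fold or more, Elovl3 was at least 1.29-fold lower, and Mc5r allowed no bound. Hair follicle markers stood at 7.16 on the stabilised and 10.25 on the GFP control array, and only the GFP control array detected Krt27, Krt71 and Krt28. All 7 skeletal muscle markers had negative knockdown differences (median -1.94), but the median was -3.77 at 5 months and -0.19 at 2 months, where Acta1 (0.35), Ckm (0.34) and Mylpf (0.56) were on the high side. Myh4, below detection on both knockdown arrays, passed the filter only through its controls and was at least 3.28-fold lower in knockdown. All 5 muscle markers measured on the adenovirus pair were at least 2-fold lower on the stabilised array, as were 4.91% of 10002 genes. Of these markers, Acta1, Tnnt3 and Actn3 were below detection on the stabilised array, and their bounds kept 2-fold, the smallest being 2.65-fold for Actn3. Ckm and Myh4 were detected on neither adenovirus array. Macrophage markers had medians of 0.08 in knockdown and 0.78 on the stabilised array over 7 genes. Neutrophil markers had medians of 0.86 and -0.30 over 5 genes. Of the melanocyte markers, Dct differed by -2.09 in knockdown, with groups that did not overlap, and was at least 5.98-fold lower on the stabilised array. Pmel, below detection on both knockdown arrays, passed the filter only through its controls and was at least 2.09-fold lower in knockdown. Tyr and Tyrp1 were below detection on every array. Of the adipocyte markers, Adipoq and Lep differed by -0.23 and -0.17 in knockdown, with opposite signs at the 2 ages, and Plin1, Fabp4, Cidec and Retn were below detection on every array. Fibroblast markers had medians of 0.03 for knockdown and 0.11 for the stabilised array over 9 genes, with single genes on both sides. On the stabilised array Pdgfra differed by 1.22 and Lum by -0.74. In knockdown Fbln1 differed by 0.54, with groups that did not overlap. The part of these cell types in the differences of the retinoid genes was not tested.

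Age was not used in choosing the members, so it was tested, with limma on the 4 tamoxifen arrays and the knockdown as a second term. Of 9855 genes, 0 (0%) had an adjusted p under 0.05, the smallest being 0.433, and 1000 had an unadjusted p under 0.05. The fit has 1 residual degree of freedom. Aldh1a3 had a log2 difference of -1.42 (SE 0.18) between 5-month and 2-month wounds, with an adjusted p of 0.433 in limma. It read 8.23 and 8.15 at 5 months, against 9.42 and 9.80 at 2 months. Crabp2 had a difference of -0.89 (SE 0.14), with 8.70 and 8.97 at 5 months and 9.56 and 9.89 at 2 months, and limma's adjusted p was 0.433. Rarg had a difference of -0.38 (SE 0.14, limma adjusted p = 0.507). On the second probe of Aldh1a3 and of Rarg the ages overlapped, with differences of -0.53 and -0.20. On the brightest probes of these 3 members, of 7 tested, the ages did not overlap, as was the case for 41.5% of all genes. For the other four (Stra6, Adh1, Aldh1a1 and Cyp26b1) the ages overlapped, with differences from -0.25 to 0.53. Basal keratinocyte markers had a median age difference of -0.63 over 9 genes and suprabasal markers of -0.62 over 7. For sebaceous markers it was -1.14 over 6 and for neutrophil markers -1.86 over 5. Skeletal muscle (-0.44) and melanocyte (-0.26) medians were negative too. Fibroblast (0.30), macrophage (0.32), endothelial (0.45) and adipocyte (0.44) medians were positive. The part of these cell types was not tested.

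Other genes of retinoid handling were taken from 5 lists. Tested with limma for knockdown against tamoxifen control, 0 of 9855 genes (0%) had an adjusted p under 0.05, the smallest being 0.264, and 434 had an unadjusted p under 0.05. This fit had no age or replicate term, so the age gap within each group counted as spread in its p-values. The median over all genes was 0.01 for knockdown and 0.05 for the stabilised array.

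In uptake and storage, 0 of 8 tested genes passed, 6 had negative knockdown differences, and the median was -0.19. Lrat, which stores retinol as esters, read 5.58 and 5.66 on the knockdown arrays, both below detection, and 6.28 and 6.96 on the tamoxifen controls. It was at least 1.44-fold lower, and since it passed the filter only through its controls, no p is given for it. On the stabilised array Lrat was below detection at 5.06, against 6.64 on the GFP control array, at least 1.27-fold lower. Lpl, a lipase that takes up lipids and retinyl esters, read 13.86 on the stabilised and 12.24 on the GFP control array. It differed by 0.32 in knockdown. Dgat2, which can also esterify retinol, differed by -0.32 in knockdown and -0.70 on the stabilised array, and the lipoprotein receptor Scarb1 by -0.34 in knockdown. Bco2, a carotenoid cleaving enzyme, was at least 1.98-fold higher on the stabilised array. The retinol carrier Ttr was below detection on all arrays except the GFP control, where it read 6.31.

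Among enzymes that oxidise or reduce retinol and retinal, 0 of 11 tested genes passed, 7 had negative knockdown differences and the median was -0.14. On the stabilised array 8 of 10 measured genes had negative differences and 1 was at least 2-fold lower, with a median of -0.42. Rdh9 read 8.20 on the stabilised and 9.24 on the GFP control array. Rdh11, Sdr16c5 and Rdh12, short-chain retinol or retinal dehydrogenases, differed there by -0.92, -0.58 and -0.52. In knockdown Rdh11 differed by -0.37 and Sdr16c5 by -0.56. Dhrs3, which reduces retinal back to retinol, read 6.31 and 6.24 in knockdown, against 6.00 and 5.50 in control wounds, the last below detection. The aldo-keto reductase gene Akr1b8 differed by 0.56, with an unadjusted p of 0.0466 and an adjusted p of 0.976 in limma.

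Among binding proteins, receptors and degrading enzymes, 0 of 8 tested genes passed, 4 had negative knockdown differences and the median was 0.03. The stabilised array gave a median of 0.22 over 8 genes. Crabp1, the relative of Crabp2, read 8.63 on the stabilised and 9.32 on the GFP control array, and differed by 0.36 in knockdown. The fatty acid binding protein Fabp5 differed by 0.48 on the stabilised array. The receptor genes Rara and Rxra differed by 0.41 and 0.22 in knockdown, and Ppard by -0.23. Rarb, a receptor gene that retinoic acid itself induces, read 7.05 on the stabilised and 5.84, below detection, on the GFP control array, at least 2.05-fold higher. In the tamoxifen groups Rarb read 6.79 and 5.43 in knockdown, against 5.66 and 6.60 in control wounds, and overlapped. The cytochrome gene Cyp2s1 differed by 0.76 on the stabilised array.

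Among genes known to respond to retinoic acid, 0 of 10 tested genes passed and 6 had positive knockdown differences, with a median of 0.04. The stabilised array gave a median of 0.23 over 9 genes, with 1 gene higher by 2-fold or more and 1 lower by as much. Rarres1 and Rarres2, named for their response to retinoids, went apart. Rarres1 read 10.36 on the stabilised and 11.93 on the GFP control array and differed by -0.59 in knockdown, while Rarres2 read 12.09 on the stabilised and 11.16 on the GFP control array and differed by 0.57 in knockdown. The homeobox gene Meis2 differed by 0.39 in knockdown, and the growth factor gene Hbegf by -0.84 on the stabilised array. Cyp26a1, a classical target of retinoic acid, was below detection on every array.

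Among the other alcohol and aldehyde dehydrogenases, 0 of 13 tested genes passed, 6 had negative knockdown differences and the median was 0.04. Aldh3a1, an enzyme for aldehydes of lipid peroxidation known from cornea, had the largest differences of this list in both experiments. It read 5.37, below detection, on the stabilised array and 10.56 on the GFP control array, at least 19.2-fold lower. On the knockdown arrays it read 7.49 and 8.84, against 9.90 and 10.67 on the tamoxifen controls, a difference of -2.12 with an unadjusted p of 0.0119 and an adjusted p of 0.976 in limma. Unlike Adh1 and Aldh1a1, Aldh3a1 was on the low side in both experiments. Aldh3b1 and Aldh1l2 were higher by 1.19 and 1.03 on the stabilised array, and Aldh16a1 by 0.69. In knockdown Aldh1l2 differed by 0.49, Aldh3b1 by 0.42 and the mitochondrial Aldh4a1 by -0.41. The neighbouring family gene Adh4 was below detection on every array.

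**Figure D3:**
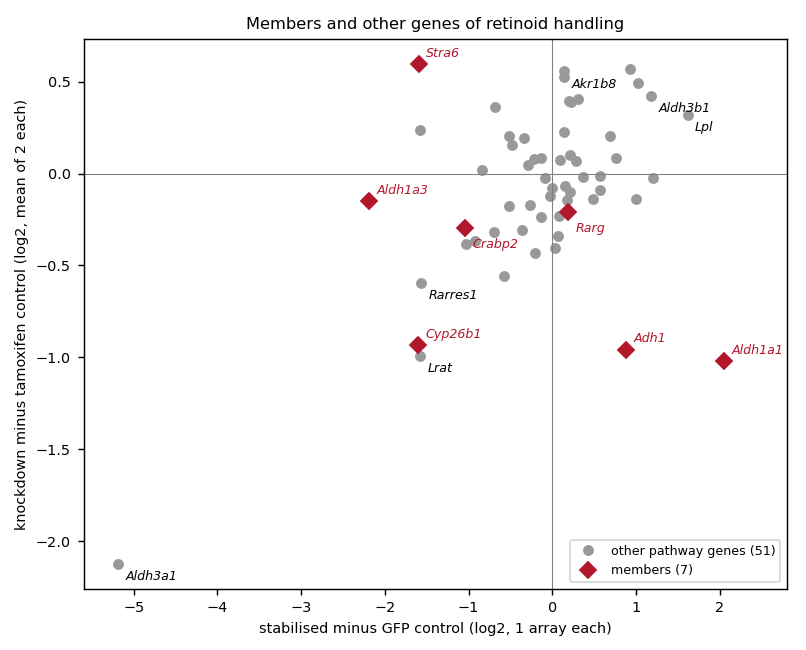
Log2 difference of knockdown minus tamoxifen control (vertical axis, mean of 2 arrays each) against stabilised minus GFP control (horizontal axis, 1 array each), for 7 members (diamonds) and 51 other genes of the 5 lists detected on any array (circles). Adh1 and Aldh1a1 stand at the lower right, with negative knockdown and positive stabilised differences, and Cyp26b1 lies beside Lrat.

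The genes most like a member over the 6 arrays were found by the root mean square (RMS) difference of log2 values, each gene centred on its own mean, among 10592 detected genes that are no members. Nearest to Cyp26b1 was Lrat, at an RMS difference of 0.08 log2. Both were detected on the GFP control array and the tamoxifen controls and on no other array. Ano9 and Pdzk1 followed at 0.16 and 0.17. Nearest to Adh7 was Xist, at 0.14, which marks the sex of the mice here. The next for Adh7 was Evpl, a gene of the cornified envelope, at 0.63, which read 11.83 and 11.30 on the adenovirus arrays and 4.96 to 6.77 on the tamoxifen arrays. Prl2c2 followed at 0.84. Nearest to Aldh1a3 were the protease genes Prss27 and Klk10, at 0.21 and 0.26, and Apol7a at 0.35. Crabp2 lay closest to Gsdmc (0.14), Hspa1a (0.19) and Grb7 (0.19). Aldh1a1 lay closest to Bmp8a (0.21), to Esr1, the oestrogen receptor gene (0.23), and to the protease gene Htra3 (0.31). Nearest to Adh1 were Plac9a and Gm9780, both at 0.28, and Adamtsl2 at 0.31. Stra6 lay closest to Rxfp3 (0.19), H2-Ob (0.23) and Abi3bp (0.24). Rxfp3 was below the lowest detected signal on every array except knockdown replicate 1, where it read 6.51, while Stra6 was detected on all arrays. H2-Ob, Bmp8a, Adamtsl2 and Pdzk1 were below it on several arrays too, so these likenesses partly compare undetected signal. The arrays share the group and age structure above, and likeness over 6 arrays is a description.

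**Figure D4:**
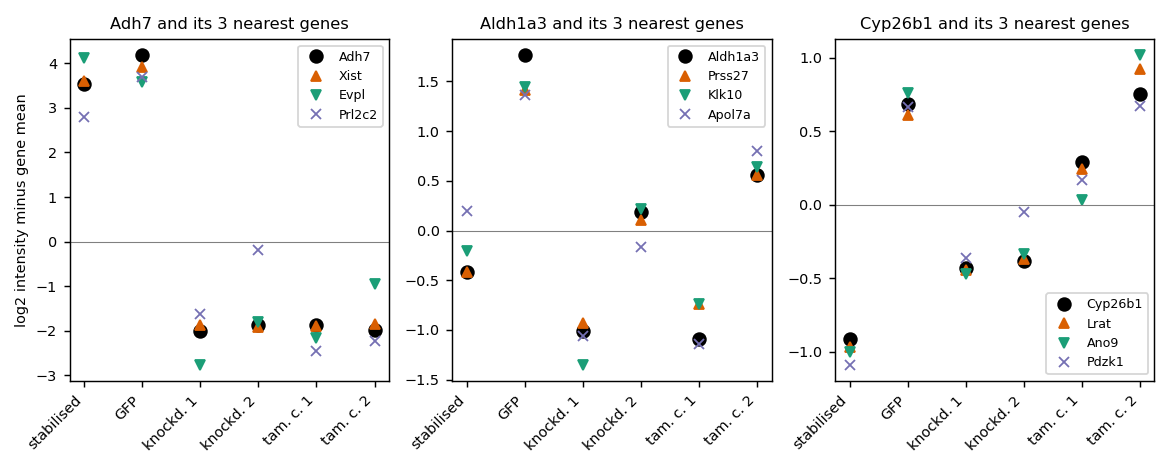
Log2 intensity minus the gene's mean over the 6 arrays (vertical axis) on each array (horizontal axis) for Adh7, Aldh1a3 and Cyp26b1 (black) and the 3 genes nearest to each (coloured). Adh7 and Xist stand high on the 2 adenovirus arrays alone, and the points of Cyp26b1 and Lrat nearly coincide, with an RMS difference of 0.08.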

How the data were processed

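Each array has 45281 probes, and per the file headers the authors deposited their average intensity together with a detection p-value, neither scaled between arrays nor background-subtracted, as the lowest intensity was 84.7. They also deposited a log2 table, quantile-equal between arrays, whose values lie within 0.0874 of limma's neqc output from the intensities. The submitters' processing notes name R 2.14 alone, with neither scanner software nor normalization method.

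The deposited log2 values were used. The platform annotation gave 1 symbol for 34885 probes, several for 18 and none for 10378. Genes detected (p under 0.01) on at least 2 of 4 tamoxifen arrays were tested at their brightest probe across all genes with limma 3.58.1 in R 4.3.3 (lmFit and eBayes, two-sided). P-values were adjusted by Benjamini-Hochberg with a limit of 0.05, and the fits left 2 residual degrees of freedom for knockdown and 1 for age. Both fits were first run on simulated data, as a check that the code returns changes that were put in. The simulated arrays had independent noise and, for the knockdown fit, no age gap within groups, unlike these wounds. An "at least" fold sets arrays below detection at the higher of their own value and the lowest detected signal (5.95 to 6.30 log2). The precision is limited by the number of arrays.

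The members, lists, tests and the rule for named genes were chosen with earlier results of these data known. The rule names all members, up to 4 genes of each pathway list by unadjusted p for knockdown and 4 by size for the adenovirus pair, and the 3 genes nearest to each member with a range of at least 1 log2. Adh4, Cyp26a1 and the single marker genes were named after their values were seen.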

Additional observations from a re-analysis of the deposited data

Results flagged for a closer look

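The knockdown difference had opposite signs at 5 and at 2 months for 2 members. For Stra6 it was 1.52 at 5 months and -0.33 at 2 months, a gap of 1.85 log2. For Aldh1a3 it was 0.08 and -0.38, a gap of 0.455 log2. Each rests on 1 array per group and age, and the difference between the ages was not tested.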

How the results depend on the processing

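Member differences were recalculated 73 times with other normalizations, probe summaries, priors or terms. Of these, 65 stayed within the within-group SD or on their side of the threshold, 8 moved and 0 changed sign. Many differences could not move, as priors, the replicate block and the group term leave them unchanged in this balanced design. Averaging probes does the same for genes with 1 probe. The adenovirus pair, with 1 array per group, has no within-group SD of its own. The moved values without background correction were 0.72 for Adh1 on the stabilised array and those given above for Aldh1a1 and Cyp26b1, and Stra6 and Crabp2 then missed 2-fold as well; the cause was not tested. Averaging all probes gave stabilised differences of 0.69 for Adh1, -0.70 for Aldh1a3 and -0.60 for Stra6, where undetected or disagreeing probes enter the mean. All 28 member values with 1 tamoxifen array left out stayed within the SD, which includes the age gap. With 2 arrays per group this outcome is fixed by arithmetic, so it checks nothing. Aldh1a3, Crabp2, Rarg (0.01 without tamoxifen control replicate 2) and Stra6 crossed 0, where the ages are no longer balanced. Genes with an adjusted p under 0.05 for knockdown numbered 0 to 7 when each array was dropped in turn, with 7 found without knockdown replicate 1 and holding no member. With the replicate block 0 genes passed and 746 had an unadjusted p under 0.05, and same-numbered arrays deviated together with r = 0.13 across genes, which are not independent replicates. A trended, robust prior called 1 gene for age, Chil1, at 0.0360, and 0 for knockdown, and for age 0 passed with any array left out. For the stabilised array, 237 genes were at least 2-fold lower when detection on both arrays was required. At 1.5-fold 951 were higher and 1031 lower, and at 4-fold 29 and 131. Signals near or below the detection limit restrict Aldh1a1, Cyp26b1 and Lrat to bounds, and Pmel and Myh4 in knockdown.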
